A study of Mus musculus with 4 samples.

Results

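The 10 genes described here code for proteins that hold cells to one another: the cadherins Cdh1, Cdh2 and Cdh11, the claudins Cldn3, Cldn4, Cldn5, Cldn6, Cldn7 and Cldn11, and the epithelial adhesion molecule Epcam. They were chosen by name, by the RefSeq identifier that the array gives for each probe (NM_009864 for Cdh1, NM_007664 for Cdh2, NM_009866 for Cdh11, NM_009902 for Cldn3, NM_009903 for Cldn4, NM_013805 for Cldn5, NM_018777 for Cldn6, NM_016887 for Cldn7, NM_008770 for Cldn11 and NM_008532 for Epcam), and the choice was made with their signals on these arrays known. All 10 were on the array, with 13 probes on 22 spots, of 39428 probes and 33227 identifiers in all. Cdh2, Cdh11 and Cldn4 had 2 probes each, and the probe of Cdh1 was spotted 10 times.

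RNA was taken from 4 mouse cell populations that follow one another, or stand side by side, on the way from embryonic stem cells to cardiomyocytes. Flk1+ MPCs are mesodermal precursor cells that were sorted for the receptor Flk1 at day 4.5, after culture on gelatin without leukemia inhibitory factor. PCBs are cardioblasts at day 5.5, positive for PDGFRα and negative for Flk1, that formed from Flk1+ MPCs under CsAYTE, a mixture of Cyclosporin A, Trolox (an antioxidant), Y27632 (which inhibits ROCK) and EW7197 (which inhibits ALK5). sfPCBs are what the study calls spontaneously formed PCBs, at day 5.5 and without CsAYTE, where DMSO served as the vehicle. M+CMs are αMHC-GFP+ cardiomyocytes of day 10.5 that came from PCBs, for which the labels do not say how long CsAYTE was given. The stem cells were EMG7, in which GFP is driven by the cardiac αMHC promoter, and E14Tg2a. M+CMs were picked by that GFP, and for the other populations the labels do not say which line gave the RNA. OP9 stromal cells were the feeder layer for cardiac induction, while Flk1+ MPCs came from gelatin.

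Classical cadherins bind the same cadherin on the next cell and are tied to the actin cytoskeleton by catenins. Cdh1 (E-cadherin) is the cadherin of the epiblast and of epithelia, and cells that leave the epiblast to form mesoderm lose it while they gain Cdh2 (N-cadherin), which later joins cardiomyocytes at the intercalated disc. Claudins are the membrane proteins that form the strands of tight junctions and set which ions pass between cells, and different tissues use different claudins.

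Each population was measured on 1 array with no replicate, so no spread between cultures and no test could be had, and every difference below compares these arrays. Values are spot signals scaled to a common 75th percentile. The error in parentheses is the one that the scanner software gives for a signal, which covers the spot and its background only. Of 43020 spots on each array that were not controls, the software called between 73.3% and 76.2% well above background, and the lowest such signal lay between 15.1 and 15.9 after scaling. Where a signal was not well above background, that lowest signal took its place if it was higher, and the fold is then written as at least that size. The label markers followed the populations in part. All 7 early mesoderm markers were well above background in Flk1+ MPCs, where their summed signal was 114130.0, and it was 5473.2 for sfPCBs, 409.8 for PCBs and 1151.6 for M+CMs. The summed signal of 13 cardiomyocyte markers was 15543.8 for Flk1+ MPCs, 20893.9 for sfPCBs, 989691.0 for PCBs and 2957178.5 for M+CMs. The sums of sfPCBs and Flk1+ MPCs were near each other, but single markers differed both ways. In sfPCBs, 4 of 13 were at least 2-fold higher (Tnni1, Tnnt2, Ryr2 and Myh7) and 3 lower (Myl7, Myl2 and Actn2). Tnni1 was 39.8-fold higher and Myl7 10.4-fold lower. Over all probes, 12.0% were higher and 10.5% lower. The 2 probes of Kdr, which codes for Flk1, differed. One gave 54864.4, 4559.1, 767.8 and 2126.2 in Flk1+ MPCs, sfPCBs, PCBs and M+CMs, and the other 11262.6, 6660.6, 7272.5 and 7498.6. Pdgfra, which codes for PDGFRα, gave 7236.6, 3646.6, 9135.9 and 918.3, so that sfPCBs lay below both Flk1+ MPCs and PCBs.

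Promoter sequence was at hand for 7 of the 10 genes, from RefSeq on build GRCm38.p6, as windows of 300 bases that run from 250 before to 50 after a start site. They are shown for 3 genes that were highest in Flk1+ MPCs (Epcam, Cldn6 and Cldn7) and the 2 that were more than 2-fold above each other population in sfPCBs (Cldn11 and Cldn5). The windows of Cldn3 and Cldn4, which held matches too, are described below but not shown. Capitals mark each match to the E-box CAGGTG or, on the other strand, CACCTG, the letters to which the Snail and Zeb repressors bind in the Cdh1 promoter. Each sequence is written 5′ to 3′ on the strand of its gene.
Epcam, chr17:87635729-87636028, plus strand: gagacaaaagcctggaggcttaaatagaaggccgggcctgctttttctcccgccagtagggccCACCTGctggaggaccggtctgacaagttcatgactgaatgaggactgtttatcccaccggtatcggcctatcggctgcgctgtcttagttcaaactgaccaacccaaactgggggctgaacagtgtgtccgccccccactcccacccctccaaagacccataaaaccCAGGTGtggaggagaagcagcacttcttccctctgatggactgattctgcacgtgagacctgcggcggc
Cldn6, chr17:23679115-23679414, plus strand: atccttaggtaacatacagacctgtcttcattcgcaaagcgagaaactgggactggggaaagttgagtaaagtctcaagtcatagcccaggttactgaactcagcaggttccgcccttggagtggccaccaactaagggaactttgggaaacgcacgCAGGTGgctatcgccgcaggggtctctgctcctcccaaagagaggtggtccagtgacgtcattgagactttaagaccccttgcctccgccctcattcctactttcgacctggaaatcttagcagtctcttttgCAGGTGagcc
Cldn7, chr11:69965171-69965470, plus strand: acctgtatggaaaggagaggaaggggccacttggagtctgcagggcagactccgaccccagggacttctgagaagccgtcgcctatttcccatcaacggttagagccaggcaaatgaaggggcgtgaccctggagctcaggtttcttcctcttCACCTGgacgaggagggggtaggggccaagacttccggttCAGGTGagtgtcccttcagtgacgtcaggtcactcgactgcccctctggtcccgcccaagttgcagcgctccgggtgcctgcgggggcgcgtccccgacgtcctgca
Cldn11, chr3:31149670-31149969, plus strand: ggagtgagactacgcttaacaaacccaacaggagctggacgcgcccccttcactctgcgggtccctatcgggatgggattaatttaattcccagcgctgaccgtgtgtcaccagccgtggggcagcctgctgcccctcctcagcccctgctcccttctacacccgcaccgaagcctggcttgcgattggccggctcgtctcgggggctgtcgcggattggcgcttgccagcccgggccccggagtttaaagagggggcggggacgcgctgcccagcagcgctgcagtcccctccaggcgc
Cldn5, chr16:18776597-18776896, plus strand: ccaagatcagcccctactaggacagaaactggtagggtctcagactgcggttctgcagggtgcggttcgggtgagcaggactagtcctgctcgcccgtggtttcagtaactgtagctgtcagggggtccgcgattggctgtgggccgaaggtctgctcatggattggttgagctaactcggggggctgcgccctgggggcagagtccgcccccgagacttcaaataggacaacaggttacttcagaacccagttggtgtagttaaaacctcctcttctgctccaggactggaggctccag

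Of the 8 windows of these genes, 5 held an E-box, against 20.2% of 32851 windows of all genes. Epcam had 2 matches, whose first bases lay at -187 and -19 from the start site, and Cldn6 had 2, at -93 and 41. Cldn7 has 2 start sites in this table, and the window shown had matches at -97 and -57 while its other window had 0. Cldn4 had 2 matches, at -14 and 12, and Cldn3 had 1, at 32. The windows of Cldn11 and Cldn5 had 0, which says only that these letters do not occur in them. A match is a description of the letters and was not tied to binding here.

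Cdh1 was well above background in Flk1+ MPCs and sfPCBs and not in PCBs or M+CMs. Its scaled signal was 274.7 (error 27.7) in Flk1+ MPCs, 173.0 (error 17.7) in sfPCBs, 11.8 (error 3.95) in PCBs and 10.3 (error 4.64) in M+CMs, and the last 2 were not well above background. PCBs were thus at least 17.7-fold and M+CMs at least 17.9-fold lower than Flk1+ MPCs, and PCBs at least 11.1-fold lower than sfPCBs. Between Flk1+ MPCs and sfPCBs the difference was 1.59-fold (log2 ratio -0.67, error 0.21), over 2 errors but short of 2-fold. In a sample of mixed cells, fewer cells that carry a transcript and less of it in each cell cannot be told apart.

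The 10 spots of the Cdh1 probe gave the same picture on each array. They ranged from 255.9 to 301.4 in Flk1+ MPCs and from 157.3 to 189.6 in sfPCBs, with a standard deviation of 0.08 and 0.09 on the log2 scale. In PCBs they ranged from 8.09 to 15.0 and in M+CMs from 4.28 to 18.4, with standard deviations of 0.26 and 0.61. The spots of Flk1+ MPCs and sfPCBs did not overlap, nor did those of sfPCBs and PCBs, whereas those of PCBs lay within the range of M+CMs. These spots repeat 1 RNA sample on 1 array and are not separate cultures.

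**Figure D1:**
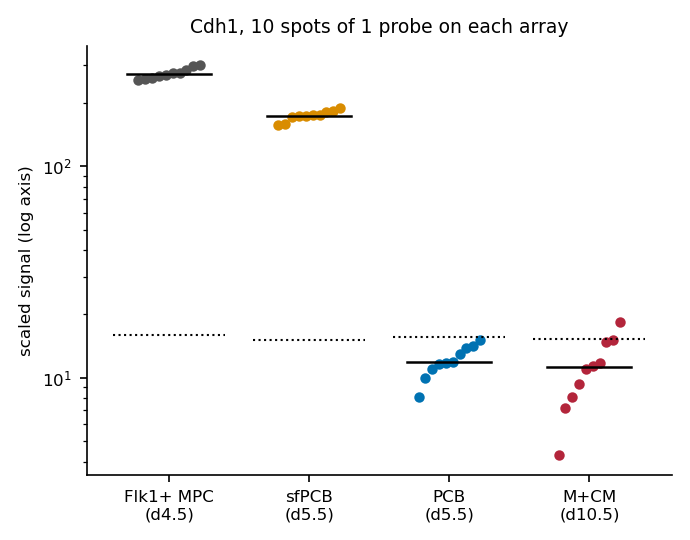
Scaled signal (log axis) of the 10 spots of the Cdh1 probe on the array of each population. Points are spots, solid lines their medians (273.1, 173.4, 11.8 and 11.2) and dotted lines the lowest signal called well above background on that array, and the 10 spots of PCBs lie below theirs and 9 of 10 spots of M+CMs lie below theirs.

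Epcam, a surface protein of epithelia and pluripotent cells that binds the same protein on the next cell, was also highest in Flk1+ MPCs. Unlike Cdh1, it was more than 2-fold lower in sfPCBs as well as in PCBs. Its signal was 723.3 (error 72.4) in Flk1+ MPCs, 95.9 (error 10.2) in sfPCBs, 57.6 (error 6.78) in PCBs and 25.3 (error 4.28) in M+CMs, all well above background. The log2 ratio to Flk1+ MPCs was -2.92 (error 0.21) in sfPCBs, -3.65 (error 0.22) in PCBs and -4.84 (error 0.28) in M+CMs, which are folds of 7.54, 12.6 and 28.6 that share the Flk1+ MPC array. Each neighbour in the order of levels differed by more than 2 errors. PCBs were 1.66-fold lower than sfPCBs, and M+CMs 2.28-fold lower than PCBs, a difference that came to -0.52 on the log2 scale when an offset of 50 was added to each signal.

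The populations in which Cdh1 and Epcam were lower differed in other ways too. Early mesoderm markers were at least 2-fold lower for 7 of 7 genes in both sfPCBs and PCBs against Flk1+ MPCs, beside 10.5% of all probes in each. T, Mesp1 and Mixl1 were not well above background in PCBs and M+CMs. Of 12 endoderm markers, the number well above background was 8 for Flk1+ MPCs, 10 for sfPCBs, 7 for PCBs and 6 for M+CMs, with summed signals of 9307.0, 14385.7, 6680.4 and 410.1. Such sums follow the brightest genes, which in sfPCBs were Trh (9001.6) and Rbp4 (3729.7). Of 10 endoderm markers compared in sfPCBs, 3 were at least 2-fold above Flk1+ MPCs and 3 as far below. Over all probes, 12.0% were higher and 10.5% lower. Of 7 pluripotent cell markers, 7 were well above background in Flk1+ MPCs and sfPCBs and 6 in PCBs and M+CMs, with summed signals of 16474.8, 3270.3, 3845.2 and 5975.7, and the 2 probes of 1 of them, Nanog, differed in direction between PCBs and Flk1+ MPCs (log2 ratios 1.16 and -5.17). The brightest of the 7 in M+CMs was Tdgf1 (3730.2). Against Flk1+ MPCs, 1 of 7 was at least 2-fold higher in M+CMs (Nanog, on its brighter probe) and 4 were lower. Over all probes, 20.7% were higher and 20.7% lower. The part of these early mesoderm, endoderm and pluripotent cell markers in the signals of Cdh1 and Epcam was not tested.

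**Figure D2:**
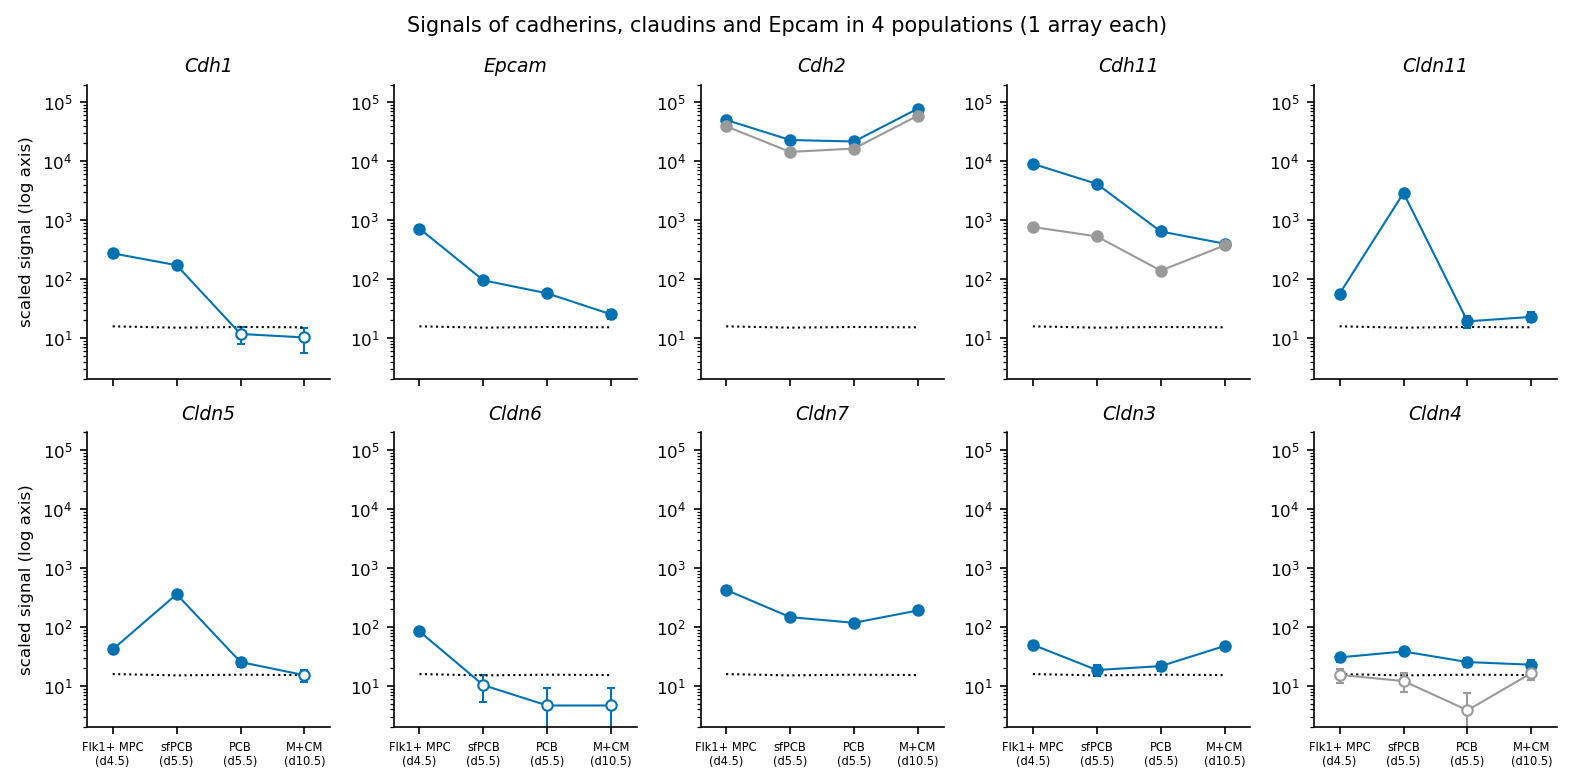
Scaled signal (log axis) of the 10 genes in each population, with the brighter probe in blue and the dimmer probe, where there is one, in grey. Error bars are the software's error of each signal and run off the axis where they reach 0, open circles were not well above background, and dotted lines mark the lowest signal called well above background. Cdh1, Epcam, Cdh11, Cldn6 and Cldn7 are highest in Flk1+ MPCs, Cldn11 and Cldn5 in sfPCBs and Cdh2 in M+CMs.

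Cdh2 was well above background in all 4 populations and highest in M+CMs. Its brighter probe gave 50173.3 (error 5017.3) in Flk1+ MPCs, 22916.5 (error 2291.7) in sfPCBs, 21616.1 (error 2161.6) in PCBs and 78077.4 (error 7807.7) in M+CMs. The other probe gave 39175.1, 14399.9, 16402.0 and 59588.1. Both probes put M+CMs first and Flk1+ MPCs next, and sfPCBs and PCBs lay within 2 errors of each other on both. M+CMs were 3.61-fold higher than PCBs (log2 ratio 1.85, error 0.2) and 1.56-fold higher than Flk1+ MPCs. sfPCBs were 2.19-fold and PCBs 2.32-fold lower than Flk1+ MPCs, and these folds fell short of 2-fold after quantile normalization (log2 ratios -0.85 and -0.98). With no scaling, the fold of sfPCBs also fell short (log2 ratio -0.79). The summed cardiomyocyte markers were also highest in M+CMs, and their part in the Cdh2 signal was not tested. Cdh1 and Cdh2 therefore differed in unlike ways between the same arrays, since PCBs were at least 17.7-fold lower than Flk1+ MPCs for Cdh1 and 2.32-fold lower for Cdh2.

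Cdh11, a cadherin of mesenchymal cells, was highest in Flk1+ MPCs and lower in sfPCBs and PCBs on both of its probes. The brighter probe gave 9034.0 (error 903.4) in Flk1+ MPCs, 4134.4 (error 413.5) in sfPCBs, 644.2 (error 64.5) in PCBs and 400.4 (error 40.2) in M+CMs. The other probe gave 767.2, 532.6, 139.9 and 374.9. The probes differed for the last population: on the brighter probe M+CMs were 1.61-fold lower than PCBs (log2 ratio -0.69), and on the dimmer probe they were 2.68-fold higher (log2 ratio 1.42). PCBs were 6.42-fold lower than sfPCBs (log2 ratio -2.68, error 0.2) on the brighter probe and 3.81-fold lower on the dimmer. sfPCBs were 2.19-fold lower than Flk1+ MPCs on the brighter probe and 1.44-fold lower on the dimmer, and with no scaling of the arrays the brighter probe also fell short of 2-fold (log2 ratio -0.79). Unlike for Cdh2, PCBs and sfPCBs thus stood apart by more than 2-fold on both probes.

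Cldn7, a claudin of many epithelia, was well above background in all 4 populations and highest in Flk1+ MPCs. Its signal was 424.8 (error 42.6) in Flk1+ MPCs, 146.6 (error 15.0) in sfPCBs, 117.6 (error 12.3) in PCBs and 190.4 (error 19.3) in M+CMs. Flk1+ MPCs were 2.9-fold above sfPCBs, 3.61-fold above PCBs and 2.23-fold above M+CMs. The next 2 steps in the order, from M+CMs to sfPCBs and from sfPCBs to PCBs, were within 2 errors. With an offset of 50, the M+CM signal was short of 2-fold from Flk1+ MPCs (log2 ratio -0.98).

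Cldn6, a claudin of embryonic epithelia and pluripotent cells, was well above background in Flk1+ MPCs alone. Its signal was 84.1 (error 9.68) there, 10.3 (error 4.96) in sfPCBs, 4.66 (error 4.64) in PCBs and 4.66 (error 4.64) in M+CMs. Flk1+ MPCs were at least 5.56-fold above sfPCBs, at least 5.41-fold above PCBs and at least 5.49-fold above M+CMs, and the other 3 populations gave no order. After another background correction, normexp with an offset of 50 and quantile normalization, the log2 ratios to Flk1+ MPCs were -0.8 in sfPCBs and -0.94 in PCBs.

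Cldn3, which seals tight junctions of simple epithelia, had a different order. Its signal was 49.9 (error 6.1) in Flk1+ MPCs, 18.6 (error 3.73) in sfPCBs, 21.7 (error 4.02) in PCBs and 47.6 (error 5.82) in M+CMs. Flk1+ MPCs and M+CMs were within 2 errors of each other, as were sfPCBs and PCBs, and the 2 pairs were 2.19-fold apart at their nearest. The differences of Cldn3 fell under 2-fold with an offset of 50 (log2 ratios -0.54 for sfPCBs and -0.48 for PCBs over Flk1+ MPCs, and 0.44 for M+CMs over PCBs), and that of M+CMs over PCBs also did so after quantile normalization (0.9) and with no scaling (0.92).

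Cldn4, a claudin of simple epithelia whose gene lies next to Cldn3 in the RefSeq annotation of GRCm38.p6, differed little between populations. Its brighter probe gave 30.5 (error 4.77) in Flk1+ MPCs, 38.4 (error 5.22) in sfPCBs, 25.4 (error 4.38) in PCBs and 22.9 (error 4.17) in M+CMs, and neighbours in the order of levels were within 2 errors. Of the 6 pairs of populations, sfPCBs and M+CMs alone were over 2 errors apart (log2 difference 0.74, error 0.33). The other probe was not well above background on any of the 4 arrays. The nearest other claudin gene to Cldn6 in that annotation is Cldn9, whose signal was 137.8, 130.8, 108.0 and 100.6 in the order of the populations above, a spread of 0.45 on the log2 scale.

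Cldn11 and Cldn5 were the 2 members more than 2-fold higher in sfPCBs than in each other population. Cldn11, the claudin of myelin and of the blood-testis barrier, gave 56.9 (error 6.83) in Flk1+ MPCs, 2898.3 (error 289.9) in sfPCBs, 19.3 (error 4.17) in PCBs and 23.0 (error 4.29) in M+CMs. sfPCBs were 50.9-fold above Flk1+ MPCs (log2 ratio 5.67, error 0.23), and PCBs were 150.4-fold below sfPCBs (log2 ratio -7.23, error 0.34). PCBs were 2.96-fold and M+CMs 2.47-fold below Flk1+ MPCs, which both came to under 2-fold with an offset of 50 (log2 ratios -0.63 and -0.55). PCBs and M+CMs were within 2 errors of each other. The high signal of Cldn11 thus stood on the array of sfPCBs alone.

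Cldn5, the main claudin of endothelial tight junctions, gave 41.6 (error 5.39) in Flk1+ MPCs, 358.6 (error 36.1) in sfPCBs, 25.4 (error 4.25) in PCBs and 15.2 (error 3.63) in M+CMs, the last not well above background. sfPCBs were 8.63-fold above Flk1+ MPCs (log2 ratio 3.11, error 0.24), and PCBs were 14.1-fold below sfPCBs (log2 ratio -3.82, error 0.28). M+CMs were at least 2.71-fold below Flk1+ MPCs, or -0.49 on the log2 scale with an offset of 50. The order of sfPCBs first and Flk1+ MPCs second was the same as for Cldn11.

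Some markers of other cell types were higher in sfPCBs as well. Of 8 endothelial markers, 7 were well above background in sfPCBs, 6 in Flk1+ MPCs and 5 in PCBs and M+CMs. In sfPCBs, 5 of 7 compared were 2-fold or more above Flk1+ MPCs, beside 12.0% of all probes. Flt1 (4017.0, 3573.2, 263.3 and 248.7 in the 4 populations) and Kdr were not above Flk1+ MPCs in sfPCBs. Cdh5, the cadherin of endothelial junctions, gave 36.2 in Flk1+ MPCs and 986.6 in sfPCBs and was not well above background in PCBs and M+CMs (6.48 and 3.31). Tek, an endothelial receptor, gave 42.4, 1462.7, 40.4 and 29.4 in the 4 populations, and Tie1, a related receptor, 4.06, 270.1, 3.96 and 9.44, of which only that of sfPCBs was well above background. The summed signal of the endothelial list was 15672.0, 13850.6, 7807.8 and 8213.1 with the Kdr probe that was brighter on average, 59273.8, 11749.0, 1303.2 and 2840.7 with its other probe, and 392.4, 3616.7, 272.0 and 465.9 without Kdr and Flt1, sums of which the last 2 were chosen after seeing the data. Emcn was not well above background on any array. Of 12 markers of stromal feeder cells or fibroblasts, 12 were well above background in sfPCBs and in M+CMs, 11 in PCBs and 9 in Flk1+ MPCs, with summed signals of 5188.6 for Flk1+ MPCs, 316016.4 for sfPCBs, 181036.7 for PCBs and 65415.7 for M+CMs. The gate that defines PCBs is PDGFRα+ and Flk1-, and the signal of Pdgfra was 3646.6 in sfPCBs and 9135.9 in PCBs. The part of endothelial or stromal cells in the signals of Cldn11 and Cldn5 was not tested.

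**Figure D3:**
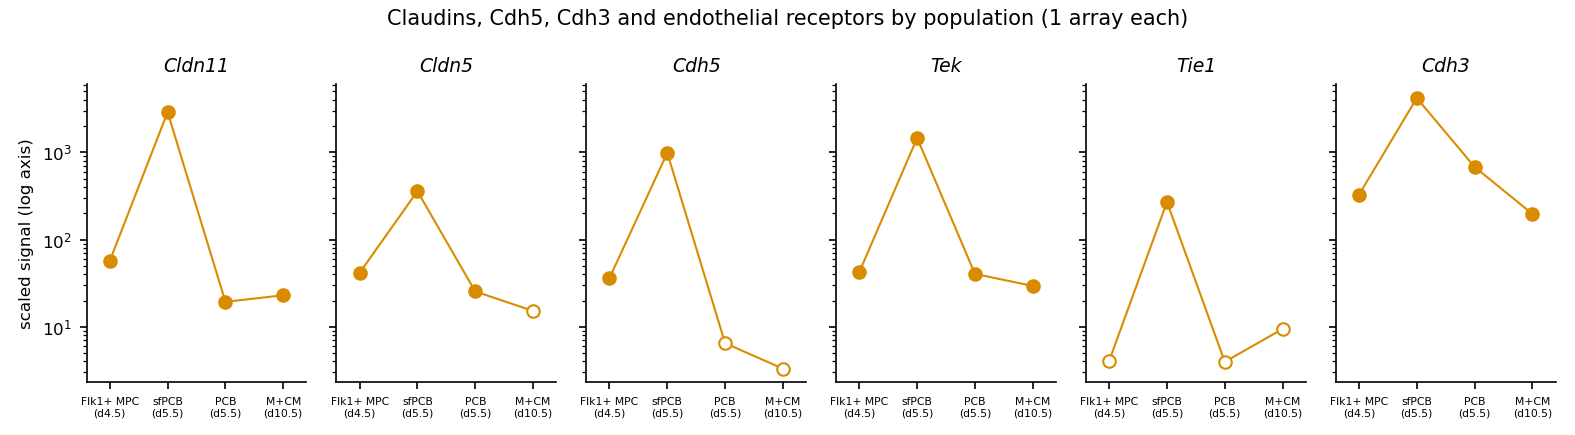
Scaled signal (log axis) of Cldn11, Cldn5, 2 further cadherins and 2 endothelial receptors in each population. Open circles were not well above background, and all 6 genes are highest in sfPCBs, where Cldn11 reads 2898.3, Cldn5 358.6 and Cdh5 986.6. Tek, Tie1 and Cdh3 were picked for this plot after their values were seen.

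Against Flk1+ MPCs, 2 of the 10 genes were at least 2-fold higher in sfPCBs (Cldn11 and Cldn5) and 6 were at least 2-fold lower (Cldn3, Cldn6, Cldn7, Cdh2, Cdh11 and Epcam). Over all 30689 probes compared, 12.0% were higher and 10.5% lower by that measure. In PCBs, 0 of 10 were higher and 8 were lower, all but Cldn4 and Cldn5, beside 11.6% higher and 10.5% lower over all probes. These shares are given for scale only, since the genes were chosen with these differences in view. The median log2 ratio of the 10 genes was -1.13 in sfPCBs and -1.71 in PCBs, and that of all probes was -0.22 and -0.19. Both comparisons rest on the same Flk1+ MPC array. After quantile normalization and with no scaling, 4 genes in place of 6 were at least 2-fold lower in sfPCBs. For PCBs, 7 in place of 8 were lower after quantile normalization.

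Between PCBs and sfPCBs, which differ in CsAYTE, 4 of 9 genes compared were at least 2-fold lower in PCBs (Cldn11, Cldn5, Cdh1 and Cdh11) and 0 were higher, beside 6.41% lower and 4.95% higher over all probes. The median of the 9 was -0.73 and that of all probes 0.03. Cldn3, Cldn4, Cldn7, Cdh2 and Epcam differed by less than 2-fold, and Cldn6 was not well above background in either population. At 30-fold, a threshold that the study also used, Cldn11 was the only member to pass in any of the 5 comparisons, as lower in PCBs than in sfPCBs and as higher in sfPCBs against Flk1+ MPCs. Of all probes, 0.379% differed by that much between PCBs and sfPCBs, 1.11% between sfPCBs and Flk1+ MPCs, 1.42% between PCBs and Flk1+ MPCs, 1.11% between M+CMs and PCBs, and 2.41% between M+CMs and Flk1+ MPCs.

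From PCBs to M+CMs, 2 of 8 genes compared were at least 2-fold higher (Cdh2 and Cldn3) and 1 was lower (Epcam), beside 18.7% higher and 14.7% lower over all probes, and Cdh1 and Cldn6 could not be compared. The median of the 8 was 0.06, but -0.15 after quantile normalization and -0.16 with no scaling, and that of all probes was 0.14. Across the whole interval from Flk1+ MPCs to M+CMs, 0 of 10 were at least 2-fold higher and 7 were lower, all but Cldn3, Cldn4 and Cdh2, beside 20.7% higher and 20.7% lower over all probes.

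The scaling of the arrays set part of the balance over all probes. Of probes at least 2-fold different from Flk1+ MPCs, 53.4% were higher in sfPCBs and 52.6% in PCBs. Of those different between other populations, 43.6% were higher in PCBs than in sfPCBs, and 56.0% were higher in M+CMs than in PCBs. With no scaling the 4 shares were 75.4%, 64.3%, 32.2% and 43.7%, and the median log2 ratio of all probes was 0.11, -0.01, -0.13 and -0.06 in the same order. Among the 10 genes, 3 log2 ratios turned their sign under a setting tried: that of Cdh11 for M+CMs over PCBs (-0.69, and 1.42 on the dimmer probe), that of Cdh2 for PCBs over sfPCBs (-0.08, and 0.19 on the dimmer probe), and that of Cldn3 for M+CMs over Flk1+ MPCs (-0.07, and 0.09 with another percentile scaling).

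**Figure D4:**
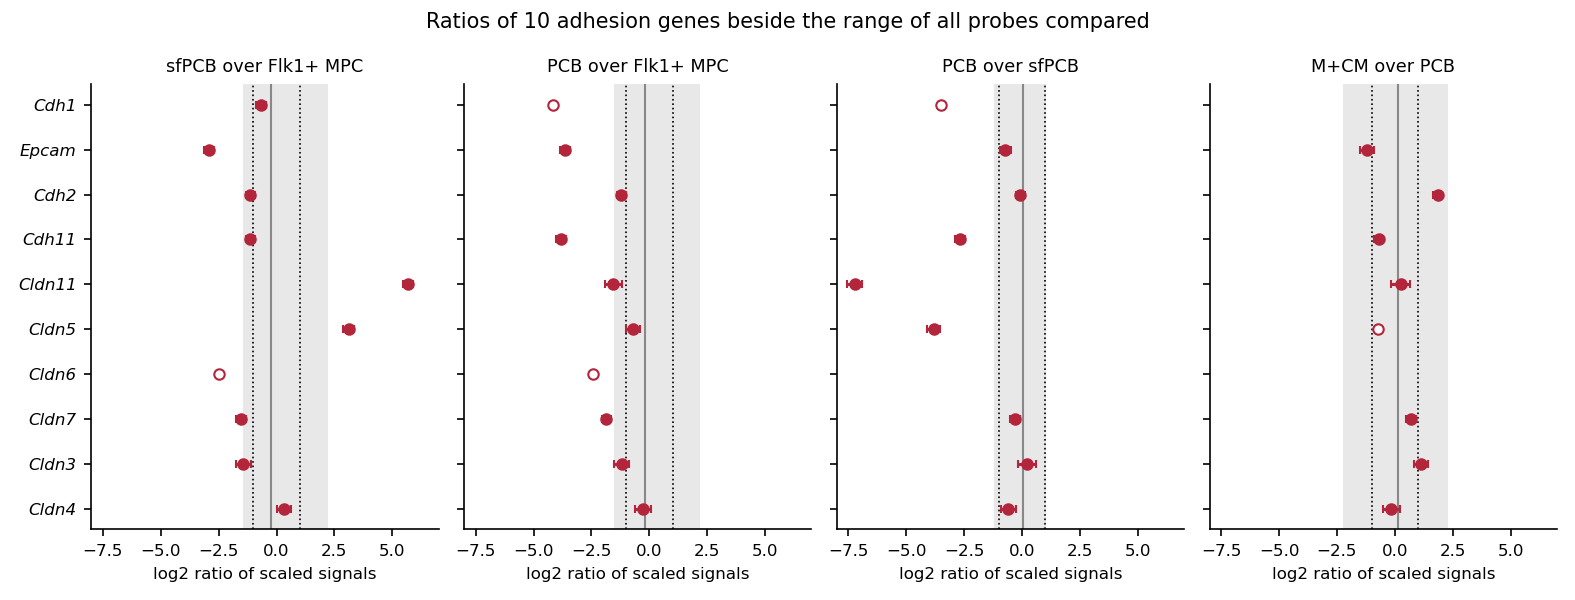
Log2 ratio of scaled signals for the 10 genes in 4 comparisons. Points are the brighter probe with the software's error as bars, open circles are bounds against a signal not well above background (the ratio is at least that far from 0), grey bands hold all probes compared from the 5th to the 95th percentile, grey lines are their medians and dotted lines mark 2-fold. Cldn11 lies far outside the band on the right for sfPCBs over Flk1+ MPCs (5.67) and on the left for PCBs over sfPCBs (-7.23).

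Of 20 other cadherins, 18 were well above background on at least 1 array. Against Flk1+ MPCs, 5 of 18 compared were 2-fold or more above in sfPCBs (Cdh3, Cdh5, Cdh10, Cdh13 and Cdh17) and 4 as far below (Cdh4, Cdh20, Cdh22 and Cdh23). In PCBs 3 of 17 were higher (Cdh3, Cdh6 and Cdh13) and 5 lower, those same 4 and Cdh5. Over all probes, 12.0% were higher and 10.5% lower in sfPCBs, and 11.6% and 10.5% in PCBs. Cdh13, an anchored cadherin of vessels and heart, had the widest range once low signals were replaced, with 428.2 for Flk1+ MPCs, 1257.6 for sfPCBs, 977.1 for PCBs and 35938.9 for M+CMs. Cdh4 (R-cadherin), the relative of Cdh2, ran the other way, with 7243.5, 1362.6, 969.9 and 146.1. Cdh5, described above, came second with a log2 range of at least 6.01, beside 6.39 for Cdh13, so their true order is not known. Cdh3 (P-cadherin), whose gene lies beside Cdh1 in the RefSeq annotation, gave 326.8, 4203.9, 680.7 and 196.6 and so differed from Cdh1 in which population was highest.

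Of 23 other claudins, 22 were matched to a probe and 13 were well above background on at least 1 array. Against Flk1+ MPCs, 3 of 12 compared were 2-fold or more above in sfPCBs (Cldn15, Cldn2 and Cldn34c1) and 2 lower (Cldn20 and Cldn26), and in PCBs 1 of 11 was higher (Cldn34c1) and the same 2 were lower. The shares over all probes were 12.0% higher and 10.5% lower in sfPCBs, and 11.6% and 10.5% in PCBs. Cldn26 gave 1877.0 for Flk1+ MPCs, 36.7 for sfPCBs, 44.0 for PCBs and 46.7 for M+CMs. Cldn34c1 gave 30.8, 303.2, 343.9 and 115.4, and Cldn20 gave 180.1, 57.7, 31.3 and 19.8. Cldn26 and Cldn20 were thus highest in Flk1+ MPCs, like Cldn6 and Cldn7, and Cldn34c1 was lowest there.

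Other parts of the junctions were measured on the same arrays. Of 28 other tight junction proteins, 3 were 2-fold or more above Flk1+ MPCs in sfPCBs (Jam2, Magi3 and Marveld2) and 2 as far below (F11r and Lsr), and 3 of 27 were higher (Cgnl1, Jam2 and Magi3) in PCBs, where Amot, Lsr and Patj were lower. As shares these were near those over all probes, 12.0% higher and 10.5% lower in sfPCBs, and 11.6% and 10.5% in PCBs. Lsr, which recruits proteins to the corners where 3 cells meet, gave 64188.9, 30819.7, 31054.6 and 1336.1, and Amot, a partner of the tight junction complex, 85186.5, 75833.5, 23032.3 and 1836.8. Jam2, a junctional adhesion molecule, gave 163.9, 808.4, 452.2 and 2608.3. Lsr and Amot were lowest in M+CMs and Jam2 was highest there.

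Of 16 catenins and nectins, which tie cadherins to actin or stand beside them, 2 of 15 compared were 2-fold or more above Flk1+ MPCs in sfPCBs (Ctnnd2 and Jup) and 1 as far below (Pkp4), while after quantile normalization 1 was above and 2 below. In PCBs 4 of 14 were higher (Afdn, Ctnnd2, Jup and Nectin1) and 0 lower. For this list and the next, the shares over all probes were 12.0% higher and 10.5% lower in sfPCBs. In PCBs they were 11.6% and 10.5%. Ctnna3, the alpha-catenin of the heart, was well above background in M+CMs alone, with 408.0 there and 4.53, 3.92 and 9.56 before. Ctnnd2, a delta-catenin, gave 45.6, 99.7, 143.1 and 761.9, and Nectin2 gave 9314.9, 13168.3, 8116.6 and 3219.7. Of 15 desmosome genes, 4 of 10 compared were 2-fold or more above Flk1+ MPCs in sfPCBs (Dsc2, Dsg2, Jup and Pkp2) and 1 as far below (Pkp1), and the same 4 of 12 were higher in PCBs and 2 lower (Perp and Pkp1). Pkp2, the plakophilin of heart muscle, gave 3630.4, 20586.7, 30988.7 and 48925.8, while Pkp1, that of skin, gave 232.6 in Flk1+ MPCs and was not well above background later. Perp, a desmosomal membrane protein, was lowest in PCBs (5133.4, 5071.6, 700.1 and 6090.9). Ctnna3 and Pkp2, like Cdh2, had their highest signal in M+CMs.

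Of 25 epithelial genes, 6 of 24 compared were 2-fold or more above Flk1+ MPCs in sfPCBs and 11 as far below, and in PCBs 3 were higher (Grhl1, Itgb4 and Lamb3) and 12 lower. All probes gave 12.0% higher and 10.5% lower in sfPCBs, and 11.6% and 10.5% in PCBs. The medians of the epithelial genes were -0.56 and -0.99 on the log2 scale, beside -0.22 and -0.19 over all probes, and with no scaling -0.22 and -0.81. Between PCBs and sfPCBs, 1 of 23 was higher (Grhl1) and 4 lower (Grhl3, Krt18, Krt8 and St14), beside 4.95% higher and 6.41% lower over all probes. Krt8 and Krt18, keratins of simple epithelia, did not follow Epcam: Krt8 gave 16120.1, 34772.9, 7761.1 and 56.1, and Krt18 62907.7, 165441.8, 31881.4 and 748.1. Both were highest in sfPCBs and lowest in M+CMs. Grhl1, a transcription factor of epithelia, was not well above background in Flk1+ MPCs (16.5) and gave 110.8, 244.4 and 23368.3 in the later populations.

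Of 14 transcription factors of epithelial to mesenchymal transition and mesenchymal genes, 7 were 2-fold or more above Flk1+ MPCs in sfPCBs and 1 as far below (Snai1), and in PCBs 5 were higher (Fap, Prrx1, Snai2, Twist2 and Zeb1) and 1 lower (Snai1). All probes gave 12.0% higher and 10.5% lower in sfPCBs, and 11.6% and 10.5% in PCBs. From PCBs to M+CMs, 1 was higher (Snai3) and 9 were lower, beside 18.7% higher and 14.7% lower over all probes. Prrx1, a homeobox factor of mesenchyme, was not well above background in Flk1+ MPCs (4.7) and gave 2097.9, 3440.0 and 223.5 later. Twist2 gave 572.7, 7461.9, 2137.2 and 65.3, and Foxc2 1218.1, 2756.7, 2266.0 and 37.7. Snai1 gave 37573.8, 9361.3, 6509.7 and 707.7, and Snai2 (Slug) gave 259.7, 12918.0, 10894.4 and 1450.5. Both were lower in M+CMs than in sfPCBs and PCBs, and they differed in the place of Flk1+ MPCs. Between PCBs and sfPCBs, Snai1 was lower in PCBs (log2 ratio -0.52, error 0.2), and Snai2 was within 2 errors (-0.25, error 0.2). Snai1 was highest and Snai2 lowest in Flk1+ MPCs, where Cdh1 and Epcam were highest. The part of these factors in the signals of Cdh1 and Epcam was not tested.

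**Figure D5:**
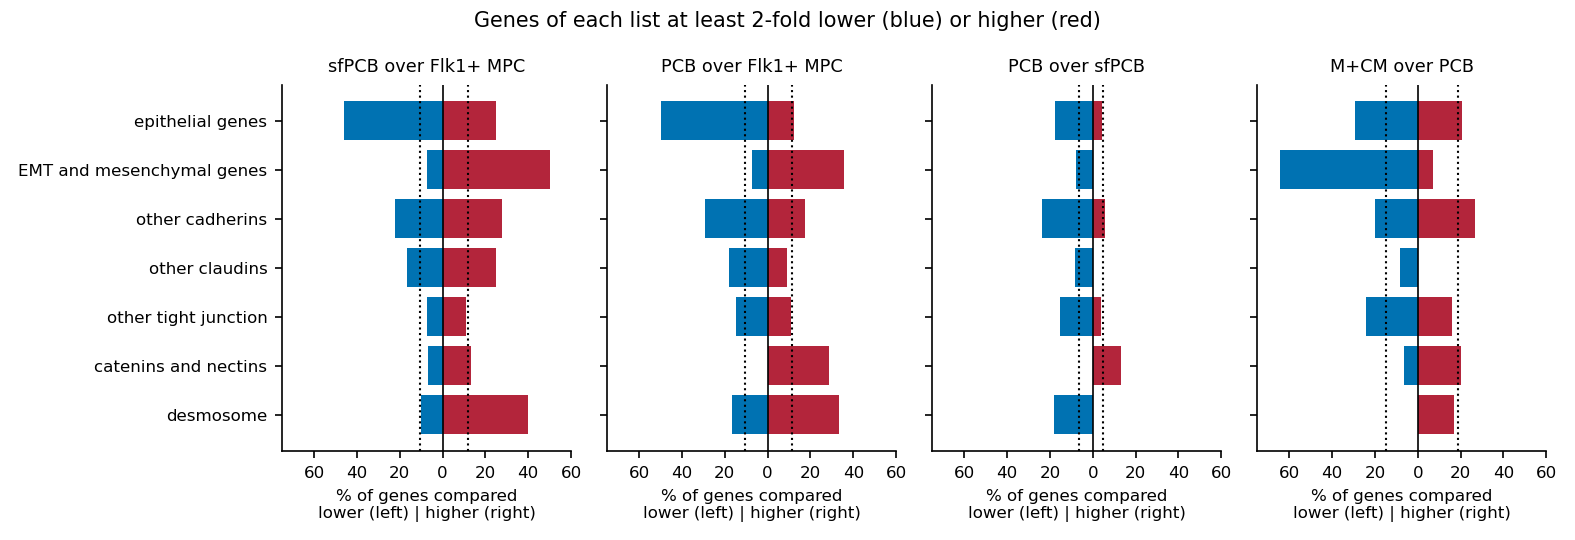
Percent of the compared genes of each list that were at least 2-fold lower (left, blue) or higher (right, red) in 4 comparisons, with dotted lines at the shares over all probes. Epithelial genes reach furthest to the left against Flk1+ MPCs (11 of 24 in sfPCBs and 12 of 24 in PCBs), and the list of mesenchymal genes does so for M+CMs over PCBs (9 of 14).

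Named genes with a profile near that of a member were found by the distance between log2 profiles over the 4 populations, each centred on its mean, among 6172 probes with a range of at least 4-fold. A likeness over 4 arrays is a description only. Signals not well above background were replaced as above, as for Cdh1 and Tac1 in PCBs and M+CMs, which sets part of their likeness. Nearest to Epcam were Gdnf (distance 0.25) and Ccr7 (0.3), and nearest to Cdh1 were Col14a1 (0.29), Flt1 (0.36) and Tac1 (0.48). For Cdh2 they were Ankzf1 (0.22), Ypel3 (0.24) and Pnpla7 (0.25). The brighter probe of Cdh11 lay very near Foxf1 (0.08), which gave 23147.4, 10585.3, 1559.7 and 1043.4 in the 4 populations, then Cd79b (0.55) and Apcdd1 (0.56). Cldn11 had no near match: Eya2 was at 0.74, Cdh5 at 0.93 and Cd34, a surface protein of endothelial and blood-forming cells, at 1.09. Eya2 gave 41.0, 1861.1, 23.9 and 16.6 and Cd34 gave 418.4, 7378.7, 72.8 and 95.8, so that both, like Cldn11, were highest in sfPCBs.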

How the data were processed

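RNA of 4 mouse populations was hybridized to 1-colour Agilent arrays (Cy3), with 1 array per population. The deposited files hold spot intensities, made by the authors with Feature Extraction 11.5.1.1 (per the submitters' processing notes), whose processed signal is background-subtracted, with its error and quality flags. A deposited table of log2 values was found to be the log2 of that signal, unscaled between arrays (medians of 6.88 for Flk1+ MPCs, 7.4 for sfPCBs, 7.19 for PCBs and 7.16 for M+CMs, difference 0.0), and served as an alternative. The design is annotated on mm9 and the spots carry identifiers only. Of 39428 probes, 27507 were named through RefSeq identifiers of GRCm38.p6.

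Control spots and spots flagged as outliers (between 87 and 144 an array) were left out, and 0 spots were saturated. The 75th percentile of every array was brought to a common value, the mean over 4 arrays (2198.4), by factors of 1.095, 0.867, 0.964 and 1.116 in the order of days, with sfPCBs before PCBs. Spots of a probe were averaged on the log2 scale, and a probe was well above background where at least 0.5 of its spots were. The median SD between repeated spots was 0.056, 0.096, 0.056 and 0.054 on the log2 scale, and 153 negative control spots had a median of 3.47 to 3.7. Ratios covered probes well above background on at least 1 array of the pair, with the lowest such signal as a floor for the other. The counting was tested on simulated arrays, with large changes planted in bright probes and noise like that between spots. That checks the code only and says nothing of 2-fold calls near background or of spread between cultures. No test between populations was run, because there was 1 array in each, and this number limits the precision.

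A gene with several probes was represented by the brighter. Named were the 10 genes, the 3 genes of each list with the largest range, genes behind counts of 5 or fewer, and the 3 genes nearest to each of 5 members, and 2 genes under this rule are not reported here. The members and lists were chosen with earlier results of these data known. Alternatives were quantile normalization, no scaling, a percentile over probes well above background on all arrays, other filters, an offset of 50, saturated spots left out, the table of log2 values, the dimmer probe and, chosen after seeing the data, normexp on the median spot signal. Normexp on the mean spot signal was not run, since that column was not used here. Python 3.11.15 with numpy 2.4.6, pandas 2.3.3 and matplotlib 3.10.9 and R 4.3.3 with limma 3.58.1 were used.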

Additional observations from a re-analysis of the deposited data

How the results depend on the processing

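No paired analysis was possible because there was 1 array per population, and for the same reason no replicate could be left out. Counts are of the 10 genes at least 2-fold different unless said otherwise. After quantile normalization, 1 in place of 2 was higher in M+CMs than in PCBs, 1 in place of 0 was above Flk1+ MPCs in M+CMs, and 8 of 15 genes nearest to a member remained. With no scaling, 1 in place of 2 was higher in M+CMs than in PCBs. Under both of these settings, 4 in place of 6 were lower in sfPCBs than in Flk1+ MPCs, a change of 1.5 times. With only probes well above background on both arrays, 4 in place of 7 differed between M+CMs and Flk1+ MPCs, all 4 lower, since bounds drop out. With no filter and no bound, 10 in place of 5 other claudins differed in at least 1 comparison. An offset of 50 left 1 in place of 3 different between M+CMs and PCBs (1 higher, 0 lower) and 4 in place of 7 between M+CMs and Flk1+ MPCs (4 lower). Normexp left 4 in place of 8 different in sfPCBs against Flk1+ MPCs (2 lower in place of 6), 4 in place of 8 in PCBs against Flk1+ MPCs (4 lower), 1 in place of 3 in M+CMs against PCBs (1 higher, 0 lower), 1 in place of 0 above Flk1+ MPCs in M+CMs, 3 in place of 5 other claudins, and 3 of 15 nearest genes. Apart from the lost bounds, the cause was not tested. The other settings moved none of these counts by over 1.5 times. Of 829 single ratios, ranges and list counts, 697 were the same within their error or within 1.5 times, 131 moved (105 to a smaller and 26 to a larger size) and 1 reversed, the log2 ratio of Cdh11 for M+CMs over PCBs, which was 1.42 on the dimmer probe in place of -0.69 (the cause was not tested). Leaving out saturated spots, of which there were 0, and the table of log2 values, which holds the same signal, each gave 92 of 92 the same. Those settings could hardly differ from the main one, so their agreement adds nothing. Cldn3, Cldn4, Cldn6 and the PCB and M+CM signals of Cldn11 and Cldn5 lie near background, and several of their 2-fold differences were lost with the offset or normexp.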
